A study of Mus musculus with 2 samples.

Results

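Potassium and chloride channel genes were examined in cartilage of wild-type C57BL/6J mouse embryos at E17.5, shortly before birth. The members were the probe sets of a whole-genome Affymetrix mouse array whose single gene symbol names a K+ channel subunit (Kcn followed by family letters and a number), a CLC, CLIC, anoctamin or tweety family protein, or Clns1a. The rule was applied to symbols alone and used no measured value. It took 217 of 45101 probe sets and 107 of 18193 named genes, and for each of the 107 genes the Entrez identifier led to the same symbol in RefSeq. One array (the round array) received RNA of cartilage portions rich in round chondrocytes. The other (the columnar/hypertrophic array) received RNA of portions rich in columnar and in hypertrophic cells. RNA of 3 portions was mixed for each, all embryos carried the wild-type genotype and no treatment is named in the labels. With 1 array per group the spread between animals or dissections was not measured, so no value has a replicate error and no difference was tested. The portions were enriched and not sorted, and in such mixed tissue fewer cells of a type and less RNA per cell cannot be told apart.

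Potassium channels let K+ leave the cell and thereby set the membrane potential, which in cells without action potentials acts mainly on Ca2+ entry and on cell volume. Their pore-forming subunits are grouped by how they open: with voltage, with intracellular Ca2+ or Na+, as inward rectifiers, or as two-pore-domain leak channels, and accessory subunits bind to these pores. Chloride passes through CLC channels, Ca2+-activated anoctamins and volume-regulated channels, whereas several CLC proteins are Cl-/H+ exchangers of endosomes and lysosomes. Chondrocytes flatten into columns and then enlarge greatly as they become hypertrophic. The study behind the arrays was concerned with TRIC-B, a K+-permeable channel of the endoplasmic reticulum that is thought to carry counter-ions during Ca2+ release.

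The values are MAS5 signals, linear intensities scaled to a common trimmed mean on each array. Signals were set against a floor of 100.5, the 95th percentile of 87 probe sets of smell, pheromone and taste receptor genes. Below it a signal was treated as not measured. Pairs of signals are given with the round array first. On the round array 55.0% of all probe sets lay above the floor, and 50.8% did on the columnar/hypertrophic array. The labels were set beside markers of the zones. These markers were chosen with earlier results of these data known, so the comparison is no independent check. All 5 hypertrophic markers exceeded the round array by 2-fold or more on the columnar/hypertrophic array, all 5 round-zone markers fell short of it by 2-fold or more, and the 5 general chondrocyte markers were within 2-fold. Fibrous tissue markers were brighter on the round array. Signals of 8 perichondrium, fibroblast and tendon markers summed to 82611 on it and to 26354 on the other, and 5 of the 7 measured were lower by 2-fold or more on the latter. Of 3 osteoblast markers only Sp7 was measured, at 170 and 1940, and Ibsp and Dmp1 were under the floor. Of 3 skeletal muscle markers measured, 1 (Tnnt3, 63.4 and 429) was higher by 2-fold or more on the columnar/hypertrophic array. The 4 endothelial markers and the 2 erythroid markers present were under the floor on both arrays. Of the pericyte and smooth muscle markers, Pdgfrb had 1968 and 446, Cspg4 7326 and 8808, and Rgs5 105 and 68.3, and Myh11 was under the floor. Of the leukocyte markers, Csf1r had 190 and 129 and Cd68 had 130 and 70.5, and Ptprc and Tyrobp were under the floor. Of 3 neuronal markers, Snap25 and Tubb3 were under the floor on both arrays and Syt1 was close to it (107 and 113).

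Most channel genes gave no signal above the floor. Of the 107 member genes, 41 lay above it on at least 1 array (38.3%), against 64.2% of all named genes, and 28 did on both. The share differed between classes. K+ channel and accessory genes were measured for 25 of 81 (30.9%), and Cl- channel and related genes for 15 of 23 (65.2%). The remaining 3 members were noncoding transcripts. Inward rectifiers had the lowest share among the classes of 5 or more genes, with 2 of 15, and the endosomal and lysosomal CLC genes the highest, with 5 of 5. This count describes probe sets of differing brightness, and a gene under the floor may still be expressed at a low level.

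**Figure D1:**
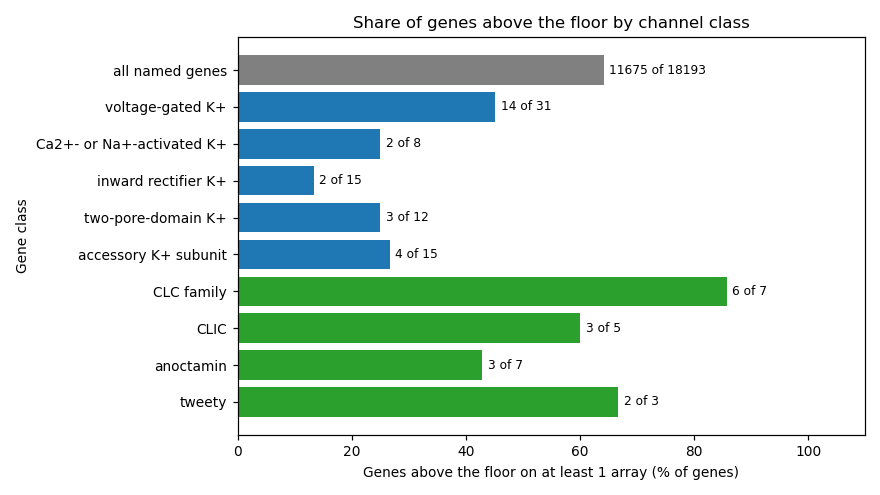
Share of genes above the floor on at least 1 array (horizontal, % of genes in the class), with the counts printed beside each bar, for all named genes (grey), K+ channel classes (blue) and Cl- channel families (green). Only the CLC family (6 of 7) and the tweety family (2 of 3) exceed the 64.2% of all named genes, and the inward rectifiers (2 of 15) lie lowest.

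Differences are given as log2 values of the columnar/hypertrophic array minus the round array, so a positive value means that the columnar/hypertrophic array had the higher signal. Where only 1 array lay above the floor the difference is a bound, and the fold carries "at least". Where a gene has several probe sets, the one with the highest mean signal stands for it, and other probe sets are given beside it for the genes described in detail. Of the 41 measured members, 6 were higher by 2-fold or more on the columnar/hypertrophic array: Kcne4, Kcnma1, Kcnk5, Ttyh2, Clcn3 and, as a bound, Kcna1. Another 3 were lower by that fold: Clcn2 and, as bounds, Kcnj13 and Ano6. The background over all 11675 measured genes was 4.27% higher and 6.33% lower by this fold (498 and 739 genes). With the arrays scaled to equal medians it was 934 higher and 410 lower, and the members gave 7 and 3. The median difference of the members was -0.08, beside -0.05 for all measured genes. Members differed in both directions, 17 above 0 and 24 below, beside 5272 above and 6403 below of all measured genes. By these values 22.0% of the members differed by 2-fold or more against 10.6% of all genes, and the median absolute difference was 0.44 against 0.34. That contrast rests on few genes, some of them dim, and was not tested. With the mean of probe sets 2 members were higher and 3 lower, beside 371 and 490 of 11703 genes. Of the measured members outside the 6 and 3 named above, 22 were above the floor on both arrays and within 2-fold. The remaining 10 were bounds under 2-fold whose true fold is not known. Among the 28 members above the floor on both arrays, 13 differed by less than 0.37, the SD between probe sets of 1 gene over 4825 genes. That SD is a technical spread and no spread between replicates. All 5 hypertrophic markers, Sp7 and Tnnt3 were higher along with the 6 higher members, and the part of these markers in the differences was not tested. The osteoblast markers Ibsp and Dmp1 were under the floor on both arrays. The other muscle markers were not higher: Acta1 had 122 and 88.4, Ckm had 103 and 18.1, and Myh3 and Myog were under the floor.

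**Figure D2:**
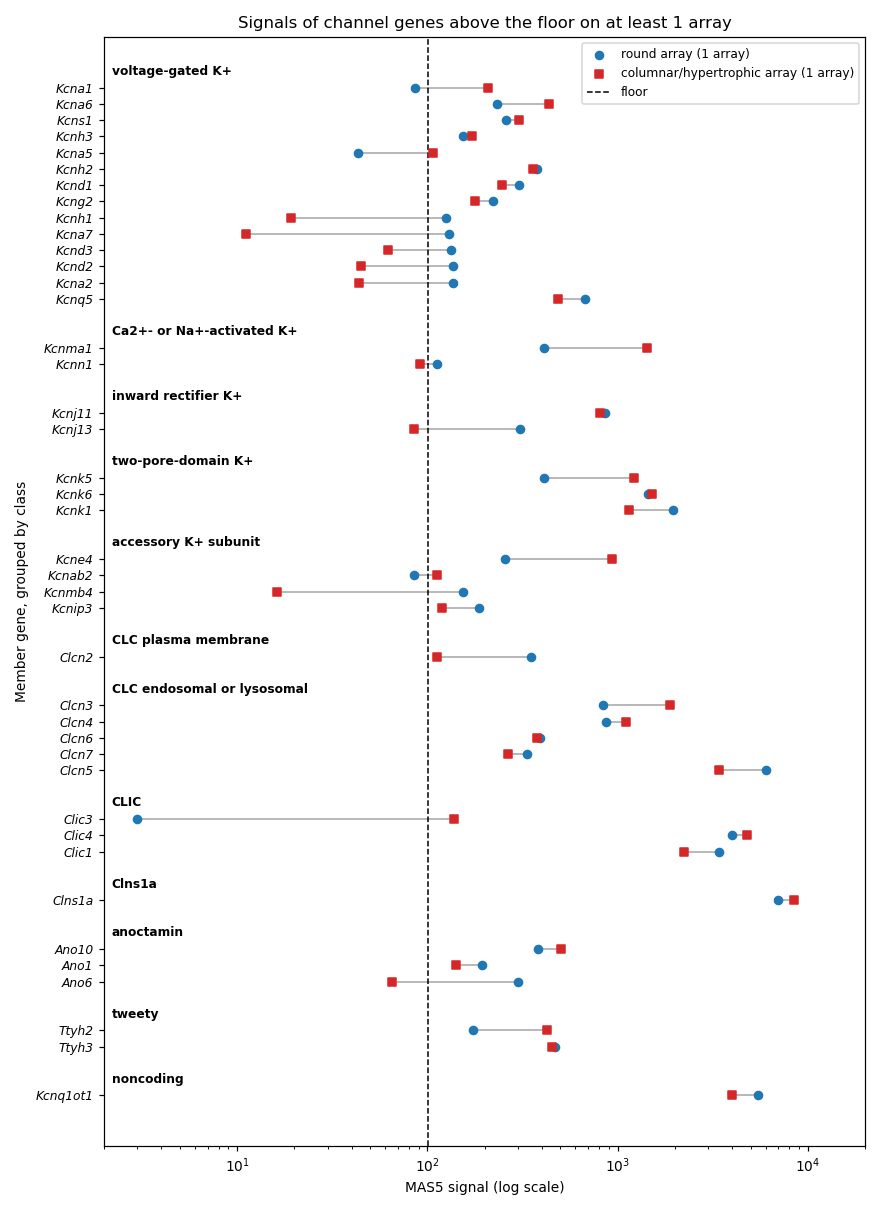
MAS5 signal (horizontal, log scale) of the 41 members above the floor on at least 1 array, with circles for the round array and squares for the columnar/hypertrophic one, joined by a line, and a dashed line at the floor of 100.5. For Kcnma1, Kcnk5 and Kcne4 the square lies well to the right of the circle, and for Clcn2, Kcnj13 and Ano6 well to its left. Some lines that run far below the floor are longer, as for Clic3, Kcna7 and Kcnmb4, but signals there were treated as not measured. Levels of different genes come from different probes and cannot be compared.

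Among K+ channel genes, the accessory subunit gene Kcne4 had the largest difference of those above the floor on both arrays. Its single-span protein binds voltage-gated K+ channels and inhibits several of them, KCNQ1 among them. The round array gave 255 and the columnar/hypertrophic array 935, 3.66-fold higher (1.87 on the log2 scale). Kcne4 has 1 probe set, so no second one checks it. Kcnq1 itself, at 9.24 and 25.1, did not reach the floor.

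Kcnma1 encodes the pore of the BK channel, which is opened by Ca2+ and depolarisation together. By its brightest probe set the signal went from 413 to 1421, a 3.44-fold higher value (1.78). All 5 of its probe sets went the same way. Their differences lay between 0.60 and 1.78, and 3 of them were at least 2-fold. The only BK accessory gene measured, Kcnmb4, was not higher. Kcnmb4, which encodes a β subunit of the channel, had 155 on the round array and 16.2 on the other, a bound of -0.62, and Kcnmb1 and Kcnmb2 were under the floor on both arrays. The small-conductance Ca2+-activated channel gene Kcnn1 had signals of 112 and 91.0, next to the floor, and the other 6 genes of the class were under it on both arrays.

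Kcnk5 encodes TASK-2, a two-pore-domain channel that opens at alkaline pH and takes part in volume regulation. The round array gave 412 and the other array 1220, 2.96-fold higher (1.57). Its other probe set was dim, went from 38.6 to 125 and gave a bound of 0.31 in the same direction. The related TWIK genes behaved otherwise. Kcnk1 (TWIK-1) had 1967 and 1150, a difference of -0.77, with -0.53 by its other probe set. For Kcnk6 (TWIK-2) the signals were 1441 and 1519, a difference of 0.08. Both arrays thus held signal for 3 two-pore-domain genes, and their differences were positive, negative and near 0. The other 9 genes of the class were under the floor on both arrays.

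The sequences upstream of Kcne4, Kcnk5 and Kcnma1 are shown because these are the K+ channel genes with the largest differences among those above the floor on both arrays. They were taken from RefSeq (GRCm38.p6), cover bases just before and after an annotated start on the gene's strand, and are printed 5′ to 3′ with CG dinucleotides in capitals. The windows lie at chr1:78816661-78816960 (plus strand), chr14:20181733-20182032 (minus strand) and chr14:24004156-24004455 (minus strand).
Kcne4: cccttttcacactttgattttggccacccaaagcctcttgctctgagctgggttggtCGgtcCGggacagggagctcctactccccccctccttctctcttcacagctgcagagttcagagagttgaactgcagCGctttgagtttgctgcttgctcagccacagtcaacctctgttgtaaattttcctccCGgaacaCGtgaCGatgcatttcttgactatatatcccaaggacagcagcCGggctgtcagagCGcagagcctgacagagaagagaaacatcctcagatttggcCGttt
Kcnk5: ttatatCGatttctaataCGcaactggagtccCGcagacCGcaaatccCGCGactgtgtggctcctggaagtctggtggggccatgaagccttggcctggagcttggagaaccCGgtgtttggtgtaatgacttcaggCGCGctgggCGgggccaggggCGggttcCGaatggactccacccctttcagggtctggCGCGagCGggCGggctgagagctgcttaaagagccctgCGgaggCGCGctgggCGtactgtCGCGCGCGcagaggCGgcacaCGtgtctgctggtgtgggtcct
Kcnma1: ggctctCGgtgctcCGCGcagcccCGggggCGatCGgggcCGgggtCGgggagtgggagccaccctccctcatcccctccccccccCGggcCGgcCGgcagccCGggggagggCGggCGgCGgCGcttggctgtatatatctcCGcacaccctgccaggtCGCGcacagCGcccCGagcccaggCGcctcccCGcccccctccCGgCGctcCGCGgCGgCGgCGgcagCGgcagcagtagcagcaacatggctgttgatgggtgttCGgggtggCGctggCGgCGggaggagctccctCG
The Kcne4 window holds 9 CG, that of Kcnk5 26 and that of Kcnma1 36. Over 32851 promoter windows of the table the median was 7, with quartiles of 3 and 20, and over the 45 windows of measured members it was 17, with quartiles of 8 and 26. The letters TATAAA on either strand, a common form of the TATA box, are in none of these 3 windows. They are in 13.6% of all windows and in 4.44% of those of measured members. Other forms were not counted, and the letters TATATAT are in the Kcne4 and Kcnma1 windows. The letters TGTGGT on either strand, a form of the RUNX core, are in none of the 3, in 16.8% of all and in 13.3% of those of measured members. Other forms of the core were not counted, and the Kcnk5 window holds TGCGGT on the strand not printed. These letters are a description of the windows, and the arrays did not measure which start was used.

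Voltage-gated pore genes formed the largest class, with 14 of 31 measured and 1 at least 2-fold different. Their median was -0.31, but 7 of the 14 values are bounds. It was -0.08 for the 7 genes measured on both arrays, between -0.07 and -0.03 with the other scalings, and 0.04 with the floor at the 99th percentile. Kcna1 (Kv1.1), a channel best known from neurons, had signals of 86.2 and 208, so the columnar/hypertrophic signal was at least 2.07-fold higher. This call rests on 1 dim probe set. Another Kcna1 probe set gave a bound of 0.21, and the other 2 were under the floor on both arrays. Kcna6 (Kv1.6), of the same subfamily, went from 232 to 435, a difference of 0.90, but its second probe set above the floor gave a bound of -0.12, so no direction was settled.

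The other 6 voltage-gated genes measured on both arrays were within 2-fold by their brightest probe sets. Kcnq5, which encodes a subunit of the slow M-type current, had signals of 671 and 484, a difference of -0.47, with -0.43 and a bound of -1.09 by its other probe sets. All 3 Kcnq5 probe sets were therefore lower on the columnar/hypertrophic array. Kcnh2 (ERG) had 379 and 359, a difference of -0.08 that turned positive (0.20) when the arrays were scaled to equal medians. Kcnd1 (Kv4.1), of the A-type current, had 303 and 246, a difference of -0.30, with a bound of -0.21 by another probe set. Silent subunits, which open only together with other pores, were represented by Kcns1 with 258 and 304 (0.23) and Kcng2 with 222 and 178 (-0.32). Kcnh3 differed by 0.16, with 0.23 and a bound of -0.20 by other probe sets. A further 6 genes of the class, Kcna2, Kcna5, Kcna7, Kcnd2, Kcnd3 and Kcnh1, were bounds under 2-fold with a highest signal of 158, and their true fold is not known. Of these, Kcna5 alone had its signal above the floor on the columnar/hypertrophic array. The 17 genes under the floor on both arrays were Kcna3, Kcna4, Kcnc1, Kcnc2, Kcnc4, Kcnf1, Kcng1, Kcng4, Kcnh5, Kcnh7, Kcnh8, Kcnq1, Kcnq3, Kcns2, Kcns3, Kcnv1 and Kcnv2.

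Inward rectifiers were represented by 2 genes. Kcnj11 (Kir6.2), the pore of ATP-sensitive K+ channels, had signals of 856 and 811, a difference of -0.08 that was 0.20 with equal medians. Its second probe set, at 57.8 and 27.7, did not reach the floor. The sulfonylurea receptor genes Abcc8 and Abcc9, whose proteins surround this pore in the complete channel, were under the floor on both arrays by each of their 5 probe sets. Kcnj13 (Kir7.1) had 306 on the round array and 85.4 on the other, at least 3.04-fold lower, by 1 probe set. Kcnj2 (Kir2.1) and Kcnj8 (Kir6.1) were among the 13 rectifier genes under the floor, whose signals did not exceed 95.5.

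In the other accessory genes the signals were low. Kcnip3, which encodes a Ca2+-binding partner of Kv4 channels that is also known as the transcriptional repressor DREAM, had 187 and 120, a difference of -0.64. With equal medians the Kcnip3 difference was -0.36, and its other probe set, at 17.2 and 20.4, did not reach the floor. Kcnab2, a β subunit of Kv1 channels, had 84.8 and 112, a bound of 0.16. Of the 15 accessory genes 11 were under the floor on both arrays.

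Chloride channel genes were led by the CLC family. Clcn3, which encodes an endosomal Cl-/H+ exchanger, had 839 and 1890 by the brightest probe set, 2.25-fold higher on the latter array (1.17). The other probe sets gave 1.13, 1.06, 0.91 and -0.17, so 4 of 5 were positive and 3 of 5 passed 2-fold. The brightest Clcn3 probe set is of a kind that may match several transcripts. Without such probe sets the difference was 0.91, and with the mean of probe sets 0.82, so the gene then no longer passed 2-fold. Clcn5, another endosomal exchanger, went the other way. Its signals were 6014 and 3410, a difference of -0.82, and all 4 of its probe sets were lower, between -1.01 and -0.63. Its brightest probe set is of the same kind, and the next brightest had 2743 and 1361.

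The remaining intracellular CLC genes differed little. Clcn4 had 873 and 1104 (0.34), and -0.10 by its other probe set. Clcn6, of late endosomes, had 391 and 379 (-0.05), and 0.13 by its other probe set. For neither gene was a direction settled. Clcn7, the lysosomal exchanger that osteoclasts need to resorb bone, had 333 and 265, a difference of -0.33, with -0.31 and a bound of -0.25 by its other probe sets. Ostm1, the gene of its obligate partner, had 172 and 188 (0.12). Of 4 osteoclast markers, Ctsk had 803 and 522 (-0.62), Oscar had 115 and 87.7, and Acp5 and Ocstamp were under the floor. Ctsk was thus lower along with Clcn7, but the Clcn7 difference is smaller than 0.37, the SD between probe sets of 1 gene. The part of Ctsk in it was not tested.

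Clcn2 encodes a plasma membrane Cl- channel opened by hyperpolarisation and cell swelling. It had the lowest difference of the members above the floor on both arrays. Its signals were 351 and 112, 3.12-fold lower on the latter (-1.64), by a single probe set that lay close to the floor there. Clcn1, the skeletal muscle channel gene of the same group, was under the floor on both arrays. All 5 round-zone markers were lower on the columnar/hypertrophic array too, as were fibrous tissue markers, Pdgfrb, Csf1r and Cd68 but not Cspg4. The part of these markers in the lower signals of Clcn2, Kcnj13 and Ano6 was not tested.

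Anoctamins differed among themselves. Ano6, which encodes a Ca2+-dependent phospholipid scramblase and ion channel, had 299 on the round array and 65.1 on the other, at least 2.98-fold lower. Its other probe set had 334 and 10.3, a bound of -1.73. Both Ano6 probe sets were therefore above the floor only on the round array. Ano1, the Ca2+-activated Cl- channel gene, had 193 and 142 (-0.44), but 127 and 127 by its other probe set. Ano10 had 382 and 502, a difference of 0.39. Ano3, Ano4, Ano8 and Ano9 were under the floor on both arrays.

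Of the tweety homologues, Ttyh2 was 2.47-fold higher in the columnar/hypertrophic portions, with signals of 173 and 428 (1.30). Its other probe set gave 13.1 and 54.5, under the floor on both arrays, and with the mean of the probe sets the difference was 0.65. Ttyh3 had 471 and 451 (-0.06), or 0.22 with equal medians, and Ttyh1 was below the floor on both.

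CLIC proteins are small proteins that exist in soluble and membrane forms, and were measured for 3 of 5 genes. Clic4 had 4006 and 4793, a difference of 0.26, with 0.75 and 0.47 by its other probe sets, all higher on the columnar/hypertrophic array. Clic1 had 3413 and 2242, a difference of -0.61. Clic3 had 2.99 and 139, a bound of 0.46 that the floor shortens. Clns1a, whose protein was first described in Cl- currents and assists the assembly of spliceosomal particles, had 6992 and 8451 (0.27), and its 4 probe sets lay between 0.27 and 0.37.

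One member that is no channel gene was well above the floor. Kcnq1ot1 is an imprinted noncoding RNA transcribed antisense within Kcnq1, and the symbol rule took it for its name. It had 5460 and 4009, a difference of -0.45. Among its 6 probe sets 4 were lower, 1 was higher by 0.23 and 1 was under the floor on both arrays. The noncoding Kcnmb4os1 and Kcnmb4os2 were under the floor on both.

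Probe sets of the same gene were compared as a technical check. For 19 members 2 or more probe sets exceeded the floor on an array, and in 12 of them all such probe sets went the same way. That count was not made over all genes, so it has no background beside it. Over the 13 members with 2 or more probe sets measured on both arrays, the SD of the log2 difference within a gene was 0.35, beside 0.37 for all genes.

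**Figure D3:**
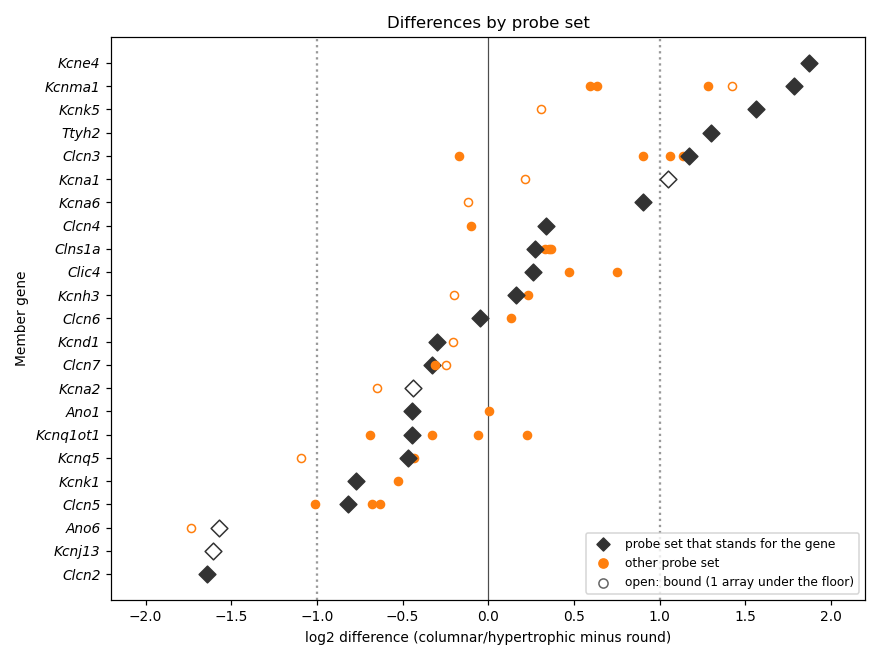
Log2 difference (horizontal, columnar/hypertrophic minus round array) of each probe set above the floor on at least 1 array, for members with several such probe sets or a difference of at least 2-fold, with dotted lines at 2-fold. Diamonds mark the probe set that stands for the gene, circles the others, and open symbols bounds; the 5 Kcnma1 probe sets all lie to the right of 0 and the 4 Clcn5 probe sets all to the left, whereas those of Clcn3, Kcna6 and Kcnq1ot1 lie on both sides.

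Genes that act with these channels or carry K+ and Cl- by other routes were examined as a further list. Of 41 genes listed, 36 had a probe set naming them alone and 21 were measured. Their median difference was 0.11, with 2 higher by 2-fold or more in the columnar/hypertrophic portions and 0 lower. Over all measured genes the median was -0.05, with 4.27% higher and 6.33% lower. The share at 2-fold or more, 9.52%, was close to the 10.6% of all genes. Stk39 encodes SPAK, a kinase that switches cation-chloride cotransporters. Its signals were 606 and 1494, 2.46-fold higher (1.30), with 2.10 and a bound of 1.47 by its other probe sets. All 3 Stk39 probe sets were therefore at least 2-fold higher. Slc26a2, the sulfate and chloride exchanger of cartilage, had 7501 and 15246 (1.02), which fell under 2-fold with quantile normalization (0.85) and lowess centring (0.84), although its other probe sets gave 1.08 and 1.46.

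The cotransporters themselves were within 2-fold. Slc12a2 (NKCC1), which loads cells with Cl- and is a target of SPAK, had 6238 and 4080 (-0.61), but -0.01 and -0.15 by its other probe sets. Slc12a4 and Slc12a7, of the K+-Cl- cotransporters that extrude both ions, differed by 0.33 and 0.06, with 0.34 by the other Slc12a7 probe set. The kinase genes above SPAK, Wnk1 and Wnk4, differed by -0.15 and -0.33, but the other Wnk1 probe sets gave 0.89 and 0.45. Lrrc8a, the essential subunit of volume-regulated anion channels, had 1980 and 1448, a difference of -0.45, by its single probe set. Its partner subunits Lrrc8c and Lrrc8d differed by 0.11 and 0.15, but by -0.24 and -0.52 with their other probe sets.

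Intracellular K+ channels outside the Kcn names were measured as well. Tmem38b, which encodes TRIC-B, had 341 and 486 by its brightest probe set (0.51), but -0.23 and -0.49 by 2 others, and its direction depends on the probe set. For Tmem38a, the TRIC-A gene, neither array was above the floor (55.8 and 30.8). Tmem175, the K+ channel gene of lysosomes, had 447 and 354 (-0.34), and -0.93 by its other probe set.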

How the data were processed

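RNA of each group was hybridised to 1 Affymetrix mouse array. The deposited values are intensities, 1 linear signal per probe set, and the submitters' processing notes name MAS5 (its version is not named there). The study's methods name RMA, but the values are linear and their mean, trimmed by 2% at either end, is 500.0 on each array, which is how MAS5 scales them. MAS5 signals of dim genes are noisy, and scaling to 1 mean assumes equal total signal. Names came from the platform annotation: 34958 had 1 symbol, 932 several and 9211 none. The arrays name no genome build.

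Signals below the floor were set to its value and log2 was taken. A gene was represented by its probe set of highest mean log2 signal. No test was possible with 1 array a group, and a fixed fold of 2 was counted, over all named genes as well. The number of arrays limits the precision. The code was tested on simulated data. The channel classes, the list of related transport genes, the markers and the members were chosen with earlier results of these data known. Genes named are every member at least 2-fold different, the 3 members of highest mean signal in each class among those above the floor on both arrays, the largest difference of each class, related genes at least 2-fold different, and Tmem38a, Tmem38b and Lrrc8a. Other genes were named after their values were seen. Protein sequences were not used here. Alternatives were 3 scalings, 2 floors, no floor with a pseudocount of 16, the mean of probe sets, probe sets without _x_at, _s_at and _a_at endings, and genes above the floor on both arrays. Python 3.11.15, pandas 2.3.3, numpy 2.4.6 and statsmodels 0.14.6 were used.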

Additional observations from a re-analysis of the deposited data

How the results depend on the processing

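With 1 array per group, leaving out an array was not possible. No paired analysis was possible because each group holds 1 array and the columns share a single number. Kcne4 and Kcnma1 stayed at least 2-fold higher, and Clcn2, Kcnj13 and Ano6 at least 2-fold lower, in every alternative that measured them; Kcnj13 and Ano6 gave no value where both arrays had to be above the floor. Scaling to equal medians moved the median of all measured genes from -0.05 to 0.22 and their calls from 498 higher and 739 lower to 934 and 410, and quantile normalization and lowess centring gave 559 and 578, and 561 and 573. Under these 3 scalings the members gave 7 higher, with Kcna6 added (1.18, 1.06 and 1.06), and 3 lower. Members at least 2-fold higher numbered 2 with the mean of probe sets, in place of 6: Kcnk5 fell to 0.94, Clcn3 to 0.82, Ttyh2 to 0.65 and Kcna1 to 0.32, since their other probe sets entered the mean. Over all genes 371 were then higher, in place of 498. Without probe sets that can match several transcripts, Clcn3 was 0.91 and Clcn5 -1.01. Kcna1 was 0.52 with the floor at the 99th percentile. Members at least 2-fold lower numbered 8 without a floor, in place of 3, since dim genes no longer gave bounds, and 1 when both arrays had to exceed the floor. Over all genes these 2 settings gave 1020 and 555 lower, in place of 739. Related transport genes at least 2-fold higher numbered 1 with quantile normalization and 1 with lowess centring, in place of 2. The median of the measured members, -0.08, ranged from -0.08 to 0.15 over the alternatives, above 0 with equal medians (0.15) and lowess centring (0.01). Signals near the floor, as in most voltage-gated genes, limit what a difference can show.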
